A study of Drosophila melanogaster with 12 samples.

Results

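TRP (transient receptor potential) channels are cation channels that open in response to heat, cold, irritant chemicals, touch or sound, and in flies several of them are candidate temperature sensors outside the visual system. The 8 examined here were TrpA1, pain, pyx, wtrw, iav, nan, Trpm and Trpgamma, and they were chosen by gene name, as every probe set annotated to 1 of these genes and to no other. They are 8 of the 10844 genes with a probe set of their own, and had 11 probe sets of the 13966 on the array that are not controls, and TrpA1, wtrw and Trpm had 2 each. All 8 genes had at least 1 probe set past the filter on low values, and 9 of the 11 probe sets passed it, among 11145 in all.

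RNA came from whole heads of adult *y w* flies kept in darkness. The flies had first been reared at 25 °C and then entrained to a thermocycle of 12 h at 18 °C and 12 h at 25 °C. CA denotes 1 further day of this cold/ambient cycle and AA a day of constant 25 °C after it, and the number after each is the hour since the cold phase (cryophase) began, or would have begun in AA (subjective cryophase). The 4 groups of 3 arrays were the CA cryophase (CA2, CA6 and CA10, at 18 °C), the CA thermophase (CA14, CA18 and CA22, at 25 °C), the AA subjective cryophase (AA2, AA6 and AA10) and the AA subjective thermophase (AA14, AA18 and AA22), the AA groups both at 25 °C. Each time point was measured on 1 array, from a pool of heads separated from bodies on sieves, so the spread within a group is the spread over 3 times of day. Array medians lay between 5.558 and 5.603 on the log2 scale. Precision is limited by the small number of arrays.

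TrpA1, pain, pyx and wtrw belong to the TRPA subfamily. TrpA1 responds to warmth and to irritants, pain is needed for the reaction of larvae to noxious heat and to harsh touch, pyx is a warm-activated channel, and wtrw is needed to sense moist air. The TRPV channels iav and nan work together in the cilia of chordotonal neurons, the stretch receptors that serve hearing and body position. Trpm takes part in the balance of metal ions and in the response of larvae to noxious cold, and Trpgamma is a TRPC channel related to the photoreceptor channels trp and trpl. Sensory neurons of these kinds are a small part of a head, and in whole-head RNA fewer cells of a type and less RNA per cell cannot be told apart.

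Signal was measured for all 8 genes, though for some of them at the level of probe sets that have no fly target. Without a detection call in RMA values, each probe set was set beside the 20th percentile of its own array and beside 15 control probe sets for bacterial transcripts. The controls had a median mean of 3.03 and reached 5.45 in their highest single value. The probe sets TrpA1 148430_at, pain 147899_at, wtrw 153412_at, iav 144617_at and Trpm 142181_at, 5 of the 11, lay above every bacterial control on all 12 arrays. Their means were 6.29, 6.05, 5.92, 6.38 and 6.85, each above the median of its arrays.

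The probe sets of the remaining genes lay within the range of the bacterial controls. pyx 147913_at averaged 4.67 and nan 148746_at 4.75, both at about the 30th percentile of the arrays (28.6 and 30.2), and 2 of the 15 controls had a higher mean than either. Trpgamma 146369_at (mean 5.185) lay above every control on 3 of the 12 arrays, and the other wtrw probe set, 149465_at (mean 5.03), on 1 of them. These 4 passed the filter with all 12 values above the 20th percentile. The other probe sets of TrpA1 and Trpm did not, with 0 of 12 values above it: TrpA1 148429_at averaged 3.66, at the 13.4th percentile, and Trpm 151491_at averaged 2.44, at the 2.4th. Probe sets differ in how strongly they bind their target, so levels of different probe sets were not ordered as transcript abundance. In what follows TrpA1 and Trpm without a probe set number stand for 148430_at and 142181_at.

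The spread of the channels over the 2 days was on both sides of the middle of the array. The SD over the 12 arrays was between 0.06 for Trpgamma and 0.20 for wtrw 153412_at, against a median SD of 0.107 over all 11145 probe sets past the filter. Of the 11 probe sets 4 lay above that median, and the median of their percentiles was 42.6. Trpgamma lay at the 7.7th percentile of these SDs, TrpA1 at the 19th, Trpm at the 55.2nd and pyx at the 55.5th. wtrw 153412_at, at the 87.8th percentile, was the most variable of the 11, with a span of 0.63 between its highest array, CA22, and its lowest, AA14.

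**Figure D1:**
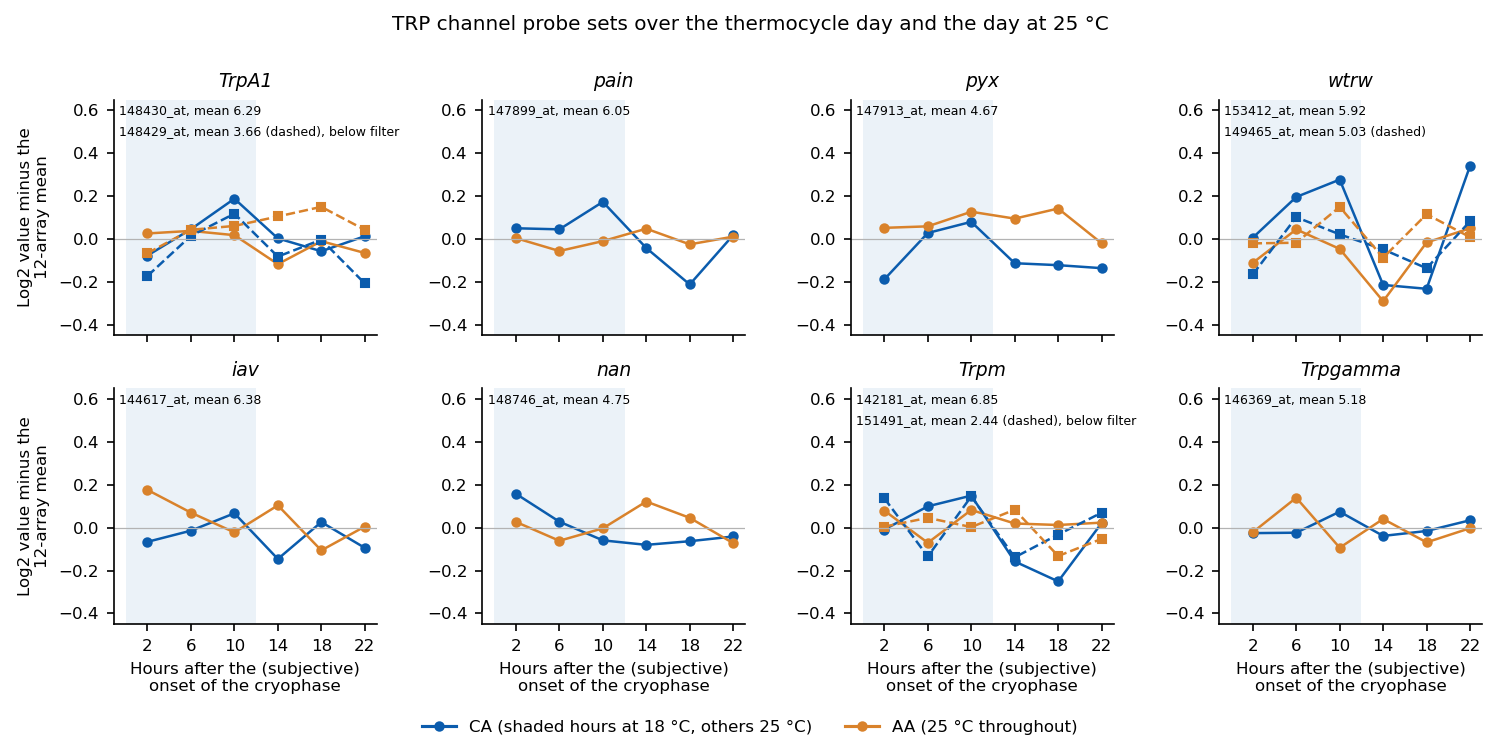
Log2 value minus the mean of the 12 arrays for each TRP channel gene over the hours of the CA day (blue, shaded hours at 18 °C) and of the AA day (orange, 25 °C throughout), with a second probe set dashed. CA10 is the highest and CA18 the lowest array of pain and of Trpm, and wtrw 153412_at has the widest span, 0.63.

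Whether the channels differ between cold and warm was asked within the CA day. Between 18 and 25 °C no TRP channel probe set passed the test, and no probe set on the array did (limma, adjusted p under 0.05: 0 of 11145, 0%). At an unadjusted p under 0.05, 2 of the 9 members passed, Trpm and pain, both higher at 18 °C. The same held for 2390 probe sets in all (21.4%), and 12.4% passed and were higher at 18 °C.

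Trpm measured 6.84, 6.95 and 6.999 in the CA cryophase (CA2, CA6 and CA10), against 6.69, 6.60 and 6.87 in the CA thermophase (CA14, CA18 and CA22). CA14 and CA18 were its lowest arrays of the 12, and the groups overlapped because CA22 exceeded CA2. The difference was 0.21 with a 95% interval of 0.04 to 0.38 (a 1.16-fold difference), and limma gave adjusted p = 0.176. The other Trpm probe set, 151491_at, below the filter and not tested, measured 2.58, 2.31 and 2.59 in the CA cryophase and 2.30, 2.41 and 2.51 in the CA thermophase, which overlap.

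pain, the TRPA channel of larval nociception, measured 6.10, 6.09 and 6.22 in the CA cryophase, against 6.01, 5.84 and 6.07 in the CA thermophase. It was the only member whose 3 cryophase values all lay above its 3 thermophase values, as 12.6% of all probe sets did. The difference was 0.17 with a 95% interval of 0.02 to 0.31 (1.12-fold), and limma gave adjusted p = 0.191.

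wtrw 153412_at measured 5.93, 6.12 and 6.20 in the CA cryophase, against 5.71, 5.69 and 6.26 in the CA thermophase. CA14 and CA18 were low and CA22, at the same temperature, was the highest array of the 12, so that the groups overlapped and the interval was wide. The difference was 0.19 with a 95% interval from -0.12 to 0.51 (limma, adjusted p = 0.433). Without CA22 it was 0.38 and passed the test (limma, adjusted p = 0.0336), and Trpm likewise passed without CA22, with 0.28 and adjusted p = 0.0221. With that array left out 1978 of the 11145 probe sets passed, against 0 with all arrays. The other wtrw probe set, 149465_at, measured 4.87, 5.14 and 5.06 in the CA cryophase, against 4.99, 4.90 and 5.12 in the CA thermophase, a difference of 0.02.

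TrpA1, the warmth and irritant channel, measured 6.21, 6.33 and 6.48 in the CA cryophase, against 6.29, 6.23 and 6.301 in the CA thermophase. CA2 was lower than every thermophase array and CA10 was the highest array of the 12. The difference was 0.07 with a 95% interval from -0.08 to 0.21 (limma, adjusted p = 0.564). pyx measured 4.48, 4.70 and 4.75 in the CA cryophase, against 4.56, 4.55 and 4.53 in the CA thermophase, and its difference was 0.10 (95% interval -0.06 to 0.26, adjusted p = 0.433 by limma).

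Of the chordotonal channels, iav measured 6.31, 6.36 and 6.44 in the CA cryophase, against 6.23, 6.40 and 6.28 in the CA thermophase. nan measured 4.91, 4.78 and 4.69 in the CA cryophase, against 4.67, 4.69 and 4.71 in the CA thermophase. The groups overlapped for both genes, with differences of 0.07 (95% interval -0.10 to 0.23) and 0.10 (95% interval -0.05 to 0.25). Trpgamma measured 5.16, 5.16 and 5.26 in the CA cryophase, against 5.15, 5.17 and 5.22 in the CA thermophase, a difference of 0.015 with a 95% interval from -0.13 to 0.16. For iav, nan and Trpgamma limma gave adjusted p values of 0.61, 0.377 and 0.902.

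All 9 probe sets had a positive difference, between 0.015 and 0.21 with a median of 0.097, beside 65.3% of all 11145 probe sets and a median of 0.051. The median half-width of the members' 95% intervals was 0.16, and the widest interval reached a 1.43-fold difference (wtrw 153412_at). The direction did not hold in every fit: with the body-tissue index described below as a covariate 5 of the 9 were positive, and with CA10 and CA18 left out 6 were. For 18 °C against all 9 arrays at 25 °C 6 were positive, with a median of 0.056, and without CA10 alone 7 were. Over all 11145 probe sets the positive share in these fits was 50.8%, 54%, 58.9% and 59.8%, in the same order.

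**Figure D2:**
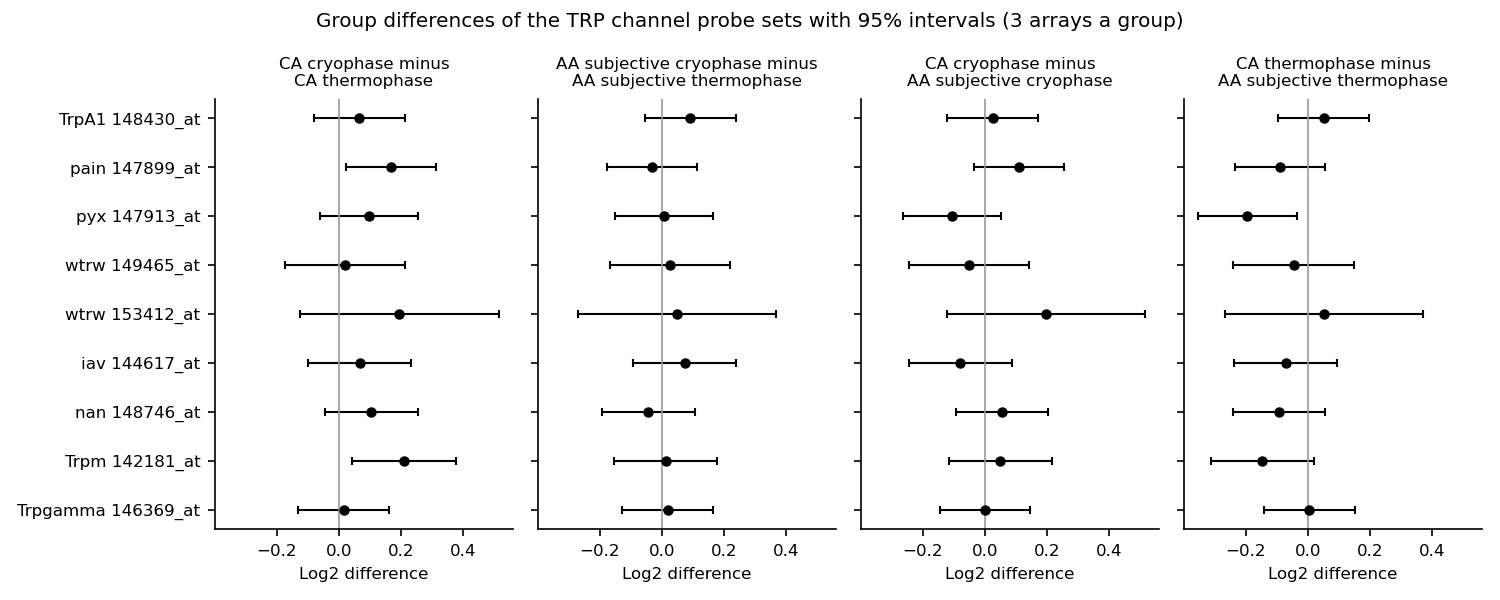
Log2 differences between groups of 3 arrays (points) with 95% intervals from limma (bars) for the 9 TRP channel probe sets past the filter, in 4 comparisons. The intervals of pain and Trpm in the first panel and of pyx in the last do not include 0, and no difference passed after adjustment over 11145 probe sets.

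At constant 25 °C the hours that had been cold and those that had been warm could be compared without a temperature difference. None of the 9 members passed at an unadjusted p under 0.05, against 327 probe sets in all (2.93%), and after adjustment 0 of 11145 passed (0%). The differences of subjective cryophase minus subjective thermophase lay between -0.044 for nan and 0.091 for TrpA1, with a median of 0.018. TrpA1 measured 6.31, 6.33 and 6.31 in the AA subjective cryophase, against 6.17, 6.28 and 6.22 in the AA subjective thermophase. It was the only member with no overlap between these groups, as were 6.64% of all probe sets in this direction, and limma gave adjusted p = 0.984.

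Trpm measured 6.93, 6.78 and 6.93 in the AA subjective cryophase, against 6.87, 6.86 and 6.87 in the AA subjective thermophase. pain measured 6.05, 5.99 and 6.04 in the AA subjective cryophase, against 6.10, 6.02 and 6.06 in the AA subjective thermophase. The groups overlapped for both genes, and the differences were 0.01 and -0.03. wtrw 153412_at measured 5.81, 5.97 and 5.87 in the AA subjective cryophase, against 5.63, 5.90 and 5.97 in the AA subjective thermophase.

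Whether the contrast of the CA day differs from that of the AA day was tested directly. The difference of the contrasts, CA minus AA, was 0.20 for pain (95% interval -0.01 to 0.41), 0.20 for Trpm (-0.04 to 0.43), 0.15 for nan (-0.06 to 0.36) and 0.15 for wtrw 153412_at (-0.30 to 0.60). The other 5 lay between -0.03 and 0.09. None of the 9 passed at an unadjusted p under 0.05, against 401 probe sets in all (3.6%), and after adjustment none of 11145 passed (0%), the smallest adjusted p among the members being 0.933 by limma.

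The AA day also allowed each group of the CA day to be compared with the same hours at 25 °C. AA came after CA, with 1 array per hour on each day. In the comparisons between the days, below, effects of the thermocycle and of the day of collection therefore cannot be told apart. In the cold hours, CA cryophase minus AA subjective cryophase, none of the 9 passed at an unadjusted p under 0.05, against 670 in all (6.01%), and none of 11145 passed after adjustment (0%). pain was the only member with no overlap, at 6.10, 6.09 and 6.22 in the CA cryophase against 6.05, 5.99 and 6.04 in the AA subjective cryophase, as were 7.1% of all probe sets in this direction. Its difference was 0.11 with a 95% interval from -0.04 to 0.26 (limma, adjusted p = 0.912).

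In the warm hours, with both days at 25 °C, pyx had the largest difference of the 9 probe sets past the filter. It measured 4.56, 4.55 and 4.53 in the CA thermophase, against 4.76, 4.81 and 4.65 in the AA subjective thermophase, with no overlap. The difference was -0.20 with a 95% interval from -0.35 to -0.04, at an unadjusted p of 0.0199 and adjusted p = 0.747 by limma. In this comparison 1 of the 9 members passed at an unadjusted p under 0.05, against 677 in all (6.07%, with 4.25% lower in CA), 6.77% had all 3 CA values lower, and none of 11145 passed after adjustment (0%). The 6 values of pyx on the AA day lay between 4.65 and 4.81 and all exceeded 4 of its 6 values on the CA day, while CA6 (4.70) and CA10 (4.75) lay among them. TrpA1 148429_at, below the filter and not tested, had a like pattern, at 3.57, 3.65 and 3.45 in the CA thermophase against 3.76, 3.81 and 3.70 in the AA subjective thermophase. TrpA1 148430_at, past the filter, did not: its groups overlapped, with a difference of 0.05 (95% interval -0.10 to 0.20).

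A 24-h rhythm was tested by fitting a cosine to each day. In CA 41 of 11145 probe sets passed (0.368%), and no TRP channel was among them. At an unadjusted p under 0.05, Trpm alone of the 9 passed, against 19.3% of all. Its amplitude, the height of the fitted peak over the daily mean, was 0.16 (SE 0.05) with a peak at CA5.86, and limma gave adjusted p = 0.249. wtrw 153412_at had an amplitude of 0.19 (SE 0.10, adjusted p = 0.448 by limma), and pain of 0.13 (SE 0.05, adjusted p = 0.29 by limma).

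In AA none of the 9 passed at an unadjusted p under 0.05, against 392 in all (3.52%), and none of 11145 passed after adjustment (0%). The amplitudes of the members ranged from 0.01 for Trpm to 0.09 for wtrw 153412_at. The cosines of the 2 days were compared in the same fit, where none of the 9 passed at an unadjusted p under 0.05, against 414 in all (3.71%), and none of 11145 passed after adjustment (0%). The largest difference between the days, as the amplitude of the difference curve, was 0.17 for Trpm (limma, adjusted p = 0.949).

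F24, the share of a day's variance held by its 24-h component, gave another ranking. In CA it was 0.73 for nan, the highest of all 60 distinct orders of its 6 values (exact permutation p = 0.0167, the smallest these orders can give, and 0.616 after adjustment over 11145 probe sets). nan measured 4.91 on CA2 and 4.78 on CA6 and between 4.67 and 4.71 on the later 4 arrays of that day. It was 1 of the 9 members with an exact p under 0.05 in CA, against 5.18% of all probe sets. F24 in CA was 0.68 for pyx and for Trpm, 0.61 for pain and 0.03 for Trpgamma. In AA none of the 9 members had an exact p under 0.05, against 3.67% of all, and nan had an F24 of 0.44.

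Transcripts of tissues that heads should hold little of moved with several of these values. The body-tissue index, which averages over 60 markers of gut, male reproductive tract and muscle how far each lay from its own mean on the log2 scale, ranged from -1.42 to 0.05 in the CA cryophase and from -0.19 to 1.03 in the CA thermophase, with its extremes on CA10 and CA18. Between the CA cryophase and thermophase, 25 of 26 gut enzymes, 17 of 17 genes of the male accessory gland and testis and 16 of 17 muscle genes had negative differences, while 8 of 8 photoreceptor, 12 of 12 neuronal and 9 of 10 glial markers had positive ones. In the same comparison the photoreceptor list had a median difference of 0.35 and the neuronal list of 0.11. The same directions held for most genes between the AA subjective cryophase and thermophase. There 25 of 26 gut, 17 of 17 male tract and 14 of 17 muscle genes had negative differences. Of photoreceptor, neuronal and glial markers 8 of 8, 11 of 12 and 7 of 10 had positive ones. The index ranged from -0.32 to -0.11 in the AA subjective cryophase and from -0.37 to 0.49 in the AA subjective thermophase.

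CA10 and CA18 were also the highest and the lowest array of Trpm and of pain. Over the 12 arrays Pearson's r with the index was -0.79 for Trpm, -0.77 for pain, -0.74 for wtrw 153412_at and -0.72 for TrpA1, with -0.48 to 0.16 for the other 7 probe sets. Spearman's rho was -0.70 for Trpm and wtrw 153412_at but -0.35 for pain. These are descriptions over arrays that share their RNA with the markers, and the part of body tissue in the differences was not tested. Beside them stand the differences of CA cryophase minus CA thermophase fitted with the index as a covariate, 0.10 for Trpm, 0.07 for pain, -0.08 for wtrw 153412_at and -0.03 for TrpA1, and those without CA10 and CA18, 0.11, 0.06, 0.04 and -0.02 in the same order. None of these passed the test by limma (adjusted p of at least 0.93). For TrpA1, AA subjective cryophase minus AA subjective thermophase was 0.06 with the index as a covariate, against 0.09 without it.

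For pyx, CA thermophase minus AA subjective thermophase was -0.18 with the index as a covariate and -0.20 without CA10 and CA18, against -0.20 with all arrays and no covariate, and r with the index was -0.33.

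**Figure D3:**
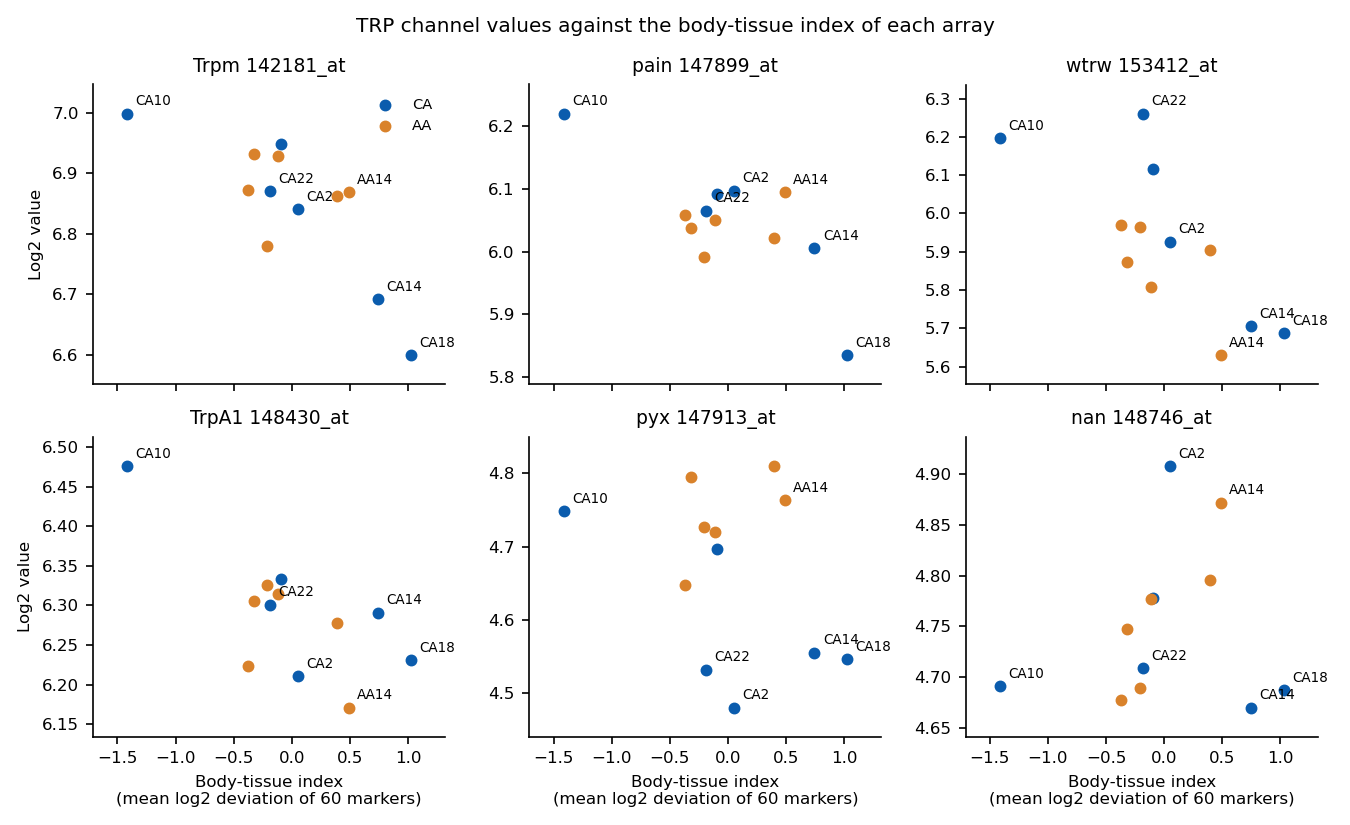
Log2 value of 6 TRP channel probe sets against the body-tissue index of each array (mean log2 deviation of 60 markers), CA in blue and AA in orange. Trpm and pain are highest on CA10, where the index is -1.42, and lowest on CA18, where it is 1.03, while pyx and nan show r of -0.33 and 0.16.

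The channels did not vary as 1 group. Over the 12 arrays the 55 pairs among the 11 probe sets had a median Pearson's r of 0.27, with a range from -0.46 to 0.85. The highest were pain with Trpm (0.85) and pyx with the low TrpA1 probe set 148429_at (0.84). iav and nan, whose proteins act together, had r = 0.09. Probe sets of the same gene had r of 0.18 for TrpA1, 0.52 for wtrw and 0.28 for Trpm, so the 2 readings of TrpA1 and of Trpm, where 1 of the 2 was near background, gave different courses.

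Outside the set, the probe sets of named genes closest in course to each channel were taken by Pearson's r over the 12 arrays. They were sky for pain (0.95), CG6044 and PsGEF for Trpm (both 0.94), Sas10 for wtrw 153412_at (0.94), CG5644 for TrpA1 (0.93), CG33128 for pyx (0.90) and ric8a for iav (0.89). For wtrw 149465_at, nan and Trpgamma the closest were CG11523 (0.87), Ugt301D1 (0.86) and CG10431 (0.85). With 12 arrays and 11145 probe sets to choose from, correlations of this size are a description only.

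Of the other TRP channels, 5 of 8 had a probe set of their own and 4 passed the filter. None passed the test between the CA cryophase and thermophase, and all 4 differences were positive with a median of 0.26, against 0.097 for the thermal and mechanical channels. trp, the main light-activated channel of photoreceptors, measured 9.62, 9.64 and 9.59 in the CA cryophase, against 8.90, 8.74 and 9.44 in the CA thermophase. Its difference was 0.59 (95% interval 0.25 to 0.93, adjusted p = 0.169 by limma), and that of its partner trpl was 0.39 (0.04 to 0.74, adjusted p = 0.204 by limma). Both were lowest on CA14 and CA18, as were the photoreceptor markers, at -0.27 and -0.43 on these arrays. nompC, the touch channel of chordotonal and bristle neurons, had a difference of 0.14 (-0.03 to 0.31), and Pkd2, a polycystin of sperm, of 0.02 (-0.18 to 0.23). Their means, 5.06 and 4.61, lay within the range of the bacterial controls. brv2, a channel of cold sensing, averaged 2.52 and did not pass the filter.

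iav and nan are made in chordotonal neurons, and other genes of these neurons and of cilia were counted beside them. Of 27 such genes 23 were measured and 15 passed the filter. Between the CA cryophase and thermophase 12 of the 15 differences were positive and 3 negative, with a median of 0.075, and none passed the test. nompA, which links the cilium to the cuticle, had the largest positive one at 0.28 (95% interval 0.06 to 0.49, adjusted p = 0.174 by limma). The negative ones were gudu, needed for sperm formation, at -0.29 (-0.59 to 0.02), Tektin-C, a protein of ciliary and sperm tail microtubules, at -0.26 (-0.56 to 0.05), and nompB, of ciliary transport, at -0.04. The genes of this chordotonal and ciliary list thus lay on both sides of 0, with spans over the 12 arrays of 0.78 for gudu, 0.71 for Tektin-C and 0.65 for nompA. Its 8 genes below the filter, among them btv (mean 3.10) and tilB (3.15), lay within the range of the bacterial controls. So did the means of some past the filter, among them nompA (5.11) and Tektin-C (4.35). The mean of nompB (5.34) exceeded the highest control mean, 5.247, but not the highest single control value, 5.45. gudu averaged 6.23, above both.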

How the data were processed

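Per the labels and the study's methods, RMA was used by the authors to correct background, make the arrays' distributions alike and give 1 value per probe set. Its version and settings are not given in the sources used here. These deposited values were taken as log2 from their range. RMA is known to understate differences of dim probe sets. Of 14010 probe sets 44 are controls, and 12443 have 1 gene in the platform annotation, 327 several and 1196 none. Sequences and coordinates were not used here.

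As in the study's methods, probe sets with more than 6 of their 12 values above the array's 20th percentile were kept. A model of 4 groups (8 residual degrees of freedom) and a cosine model with an intercept, cosine and sine of 24 h per day (6) were fitted to 11145 probe sets in limma 3.58.1 under R 4.3.3, after tests on simulated data, with Benjamini-Hochberg adjustment and a threshold of 0.05. F24 was compared with all 60 distinct orders of a day's 6 arrays, one-sided for a larger share. Comparisons of both days share the arrays they have in common. P-values measure only the spread between single arrays at different hours. Figures were drawn with matplotlib 3.10.9.

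Every probe set of the 8 genes was named, and for likeness the closest probe sets by Pearson's r. Where a gene outside the set had several probe sets, that with the highest mean stood for it. The lists were the members, other TRP channels, other temperature sensors, nociception and mechanosensation, chordotonal and ciliary genes, photoreceptor, neuronal and glial markers, muscle, gut enzymes, and male accessory gland and testis. The members and lists were chosen with earlier results of these data known.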

Additional observations from a re-analysis of the deposited data

How the results depend on the processing

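No TRP channel probe set passed any test with all arrays, and of 1499 values of the 9 probe sets under other settings 4 passed: Trpm and wtrw 153412_at in CA cryophase minus CA thermophase without CA22, and Trpm and pain there at an adjusted p under 0.2 (0.176 and 0.191). The sign differed in 72 of the values that have one. Over all probe sets, the count for CA cryophase minus CA thermophase (0) was 9 with no filter, 10 with a trended robust prior, 5 with a common array median, 2 with the body-tissue index as a covariate, 3 for 18 °C against all 9 arrays at 25 °C, 1768 at an adjusted p under 0.2 and 1 without CA10 and CA18, a setting chosen after seeing the data. Leaving out 1 array gave 0 to 1978, the highest without CA22. For the 24-h cosine in CA (41) the counts were 85 with a trended robust prior, 195 with the index, 0 with each day alone, 3 with F tests without moderation, 827 at an adjusted p under 0.2 and 2 without CA10 and CA18, and 1 (without CA18) to 731 (without CA22) with 1 array left out. With the index as a covariate the cosine in AA had 6, the difference of the cosines 1 and the difference of the contrasts 1, and without moderation the cosine in AA had 2 and the difference of the cosines 1. With the hour of collection as a block CA cryophase minus AA subjective cryophase had 1. Leaving out 1 array gave 0 to 7 there, 0 to 1 for CA thermophase minus AA subjective thermophase and for the difference of the contrasts, and 0 for the AA contrast, the cosine in AA and the difference of the cosines. The cause of these moves was not tested. The fit with the hour of collection as a block paired the days, and in it none of the 27 values of the 9 probe sets passed (lowest adjusted p = 0.234 by limma, pyx in CA thermophase minus AA subjective thermophase). Within a day cryophase and thermophase share no hour, so nothing pairs them. pyx, nan, wtrw 149465_at and Trpgamma lie among the bacterial controls, which limits what their values can show.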

Other observations

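Of 14 other candidate temperature sensors, 10 had a probe set of their own and 6 passed the filter. Probe sets for receptors of cool, warm and moist-air cells gave low values. Ir21a, of cool cells, averaged 2.16 and Ir68a, of moist-air cells, 3.60, both with 0 of 12 values past the 20th percentile of their arrays. Gr28b, of warm cells, averaged 4.01 with 1 such value, and the co-receptor Ir93a 4.16 with 6. The co-receptor Ir25a, which many olfactory neurons also make, averaged 5.503 and passed. It measured 5.78, 5.36 and 5.58 in the CA cryophase, against 5.45, 5.26 and 5.43 in the CA thermophase, a difference of 0.19 (95% interval -0.01 to 0.40, adjusted p = 0.258 by limma). nocte, needed for the clock to follow temperature cycles, was the only one of the 6 with a negative difference, -0.14 (-0.31 to 0.03). It measured 4.64, 4.53 and 4.73 in the CA cryophase, against 4.83, 4.72 and 4.78 in the CA thermophase. Its AA contrast was -0.15 (-0.33 to 0.02), and the difference of the contrasts was 0.015 (-0.23 to 0.26). The other 4, Ir40a, Rh7, Galphaq and Plc21C, had CA differences between 0.07 and 0.26, and none of the 6 passed the test. The means of nocte (4.74), Galphaq (4.295) and Plc21C (4.40) lay within the range of the bacterial controls. That of Ir40a (5.40) lay above the highest control mean, 5.247, and its value exceeded every control on each array.

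Of 8 other genes of nociception and mechanosensation, 4 were measured and 3 passed the filter. ppk, a sodium channel of larval nociceptors, averaged 5.90 with a CA difference of 0.11 (95% interval -0.04 to 0.26). stj, a calcium channel subunit of heat nociception, had 0.16 (0.002 to 0.32, adjusted p = 0.227 by limma) and stum, of stretch-sensing neurons, 0.07 (-0.06 to 0.20). The mean of stj, 4.23, lay within the range of the bacterial controls.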
